A study of Mus musculus with 8 samples.

Results

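Public T cell receptor β (TRB) chains, meaning TRB CDR3 amino acid sequences recorded in several mice, were examined in mouse CD8+ T cells. A chain was called public when the same CDR3 was found in 3 or more of 7 animals. Only barcodes without a multiplet mark and with at least 2 TRB transcripts were counted, and such a barcode is called a cell below. By this rule 1721 of 57427 distinct chains were public, which is 3.00% of them, and they were carried by 15686 of 88238 cells. They were compared with 51292 chains found in 1 animal only, called one-animal chains. The 4414 chains found in 2 animals were left out of that comparison. The public chains were chosen by their presence in several animals, so all values are a description and no p-value is given. The same public chains stand in several animals, so counts such as 7 of 7 animals are not independent repeats.

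The data came from 8 multiplexed sublibraries of one Parse Evercode TCR experiment, in which every sublibrary held cells of all mice. Chains were recorded in 14 tables from 7 mice, with a thymus table for each mouse. The second table of mouse-155A came from spleen, as did that of mouse-155C. Tumor tables came from mouse-164C, mouse-164B, mouse-160C, mouse-160B and mouse-160A instead. The study used Pdcd1fl/fl mice and Pdcd1 cKO mice, in which E8I CD8-Cre deletes Pdcd1, the gene of the inhibitory receptor PD-1, in CD8+ T cells. Both genotypes carried the floxed allele, and mice were either free of tumor or bore B16-OVA or B16-F10 melanoma. The labels give neither genotype, tumor model nor age for a mouse, so no groups were formed, and every value belongs to a table or an animal. A table held from 1703 to 14113 cells with a TRB chain, and each table had 3 to 6 TRB transcripts in its median cell. Nucleotide sequences were annotated for all TRB cells of 11 tables, for 92.6% in mouse-160B thymus, for 40.4% in mouse-164B thymus and for 31.1% in mouse-164C tumor. The tables hold receptor chains only, so the CD8+ label could not be set against CD8 gene expression.

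A TRB chain is made by joining a TRBV, a TRBD and a TRBJ gene segment. Nucleases trim the ends of the segments, and the enzyme terminal deoxynucleotidyl transferase (TdT) adds bases that no gene encodes. The CDR3 spans these joins and lies over the bound peptide when the receptor meets antigen. Several codons encode most amino acids, so one CDR3 protein sequence can arise from different rearrangements. Here each distinct CDR3 nucleotide sequence of a chain is called a version. Bases of a version that matched neither the germline V, the germline J nor a TRBD stretch of 3 or more bases are called left-over bases. They hold added bases, palindromic bases at segment ends and any unmatched TRBD bases.

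Versions of 3 of the most widely shared chains are shown first, since they carry the main observation, together with 1 chain that had a single version. All are printed 5′ to 3′, with germline-matched bases in lower case and left-over bases in capitals. The germline TRBD segments lie on chromosome 6 of GRCm39, TRBD1 at chr6:41510135-41510146 and TRBD2 at chr6:41519097-41519110, both on the plus strand, and the first 2 lines give them for reference.
TRBD1: gggacagggggc
TRBD2: gggactgggggggc
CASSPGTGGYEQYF, TRBV29, 8 cells of mouse-160A: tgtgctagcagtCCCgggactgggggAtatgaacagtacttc
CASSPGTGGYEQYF, TRBV12-1, mouse-160A and mouse-164C: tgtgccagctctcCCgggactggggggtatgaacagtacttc
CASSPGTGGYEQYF, TRBV16, mouse-155C: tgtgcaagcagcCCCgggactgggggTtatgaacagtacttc
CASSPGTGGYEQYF, TRBV3, mouse-160A: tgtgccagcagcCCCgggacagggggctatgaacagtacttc
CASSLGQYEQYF, TRBV29, mouse-160B and mouse-164B: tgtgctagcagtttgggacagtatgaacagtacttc
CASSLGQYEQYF, TRBV14, mouse-160B and mouse-160C: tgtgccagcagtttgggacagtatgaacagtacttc
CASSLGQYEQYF, TRBV12-2, mouse-155A: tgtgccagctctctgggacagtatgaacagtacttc
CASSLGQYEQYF, TRBV17, mouse-160B: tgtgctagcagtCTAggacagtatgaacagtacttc
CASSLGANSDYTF, TRBV12-1, mouse-164B and mouse-164C: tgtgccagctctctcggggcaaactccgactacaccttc
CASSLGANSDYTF, TRBV16, mouse-155C and mouse-160B: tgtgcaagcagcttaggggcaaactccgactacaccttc
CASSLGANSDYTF, TRBV29, mouse-155A: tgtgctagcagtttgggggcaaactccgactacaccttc
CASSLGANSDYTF, TRBV12-1, mouse-155A: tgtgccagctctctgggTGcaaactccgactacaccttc
Single-version chain, TRBV13-1 and TRBJ2-4, all 7 animals: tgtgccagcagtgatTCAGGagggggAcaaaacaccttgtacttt
Among the versions shown for the first 3 chains, different TRBV genes and different bases at the joins encoded one CDR3 protein sequence. The versions shown do not stand for all versions in their left-over bases. Over all annotated versions, the mean was 3.16 left-over bases in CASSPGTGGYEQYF, 2.2 in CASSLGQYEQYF and 1.29 in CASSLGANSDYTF. The single-version chain had 6 left-over bases and the same nucleotides in every annotated cell.

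Checks on the libraries bear on sharing. No barcode was found in more than 1 table. A first barcode part marks the well, and so the mouse, while later parts and the sublibrary do not depend on the mouse. All later parts and the sublibrary matched a cell with the same chain in another animal in 242 of the 15686 public cells. These cells belonged to 91 public chains. Without them 1664 chains were still public. The transcript minimum moved the count more, to 7859 public chains at 1 or more TRB transcripts and 976 at 3 or more. With the same V and J gene required beside the same CDR3, 510 chains were public, and the median share of cells with a public chain over the 14 tables was 3.28% in place of 13.04%.

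Most public chains were shared by few animals. There were 1095 chains in 3 animals, 407 in 4, 156 in 5, 46 in 6 and 17 in all 7. Mouse-164C held the most public chains, 1370 of 1721, and mouse-160A the fewest, 413, in the same order as the distinct chains of these mice, 18080 and 3523. Leaving out mouse-164C left 914 public chains, leaving out mouse-160B 1067 and leaving out mouse-164B 1112. A public chain had from 3 to 908 cells, with a median of 4, and 1261 public chains (73.3%) had at most 2 cells in any animal.

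CDR3 length, left-over bases and number of versions differed with the number of animals that held a chain. Mean CDR3 length was 14.1 residues for chains of 1 animal, 13.6 for chains of 2 animals, just outside the rule, and 13.4 for chains of 3 animals, just inside it. It was 12.98 for chains of 6 animals and 13.5 for the 17 chains of 7 animals, so the order did not continue to the end. Mean left-over bases were 4.24, 2.75 and 2.25 for chains of 1, 2 and 3 animals and lay between 1.99 and 2.21 for chains of 4 to 7 animals. Chains of more animals also had more cells in which a version could be seen, and mean versions per chain went from 1.01 in 1 animal to 2.65 in 3 and 10.3 in 7.

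**Figure D1:**
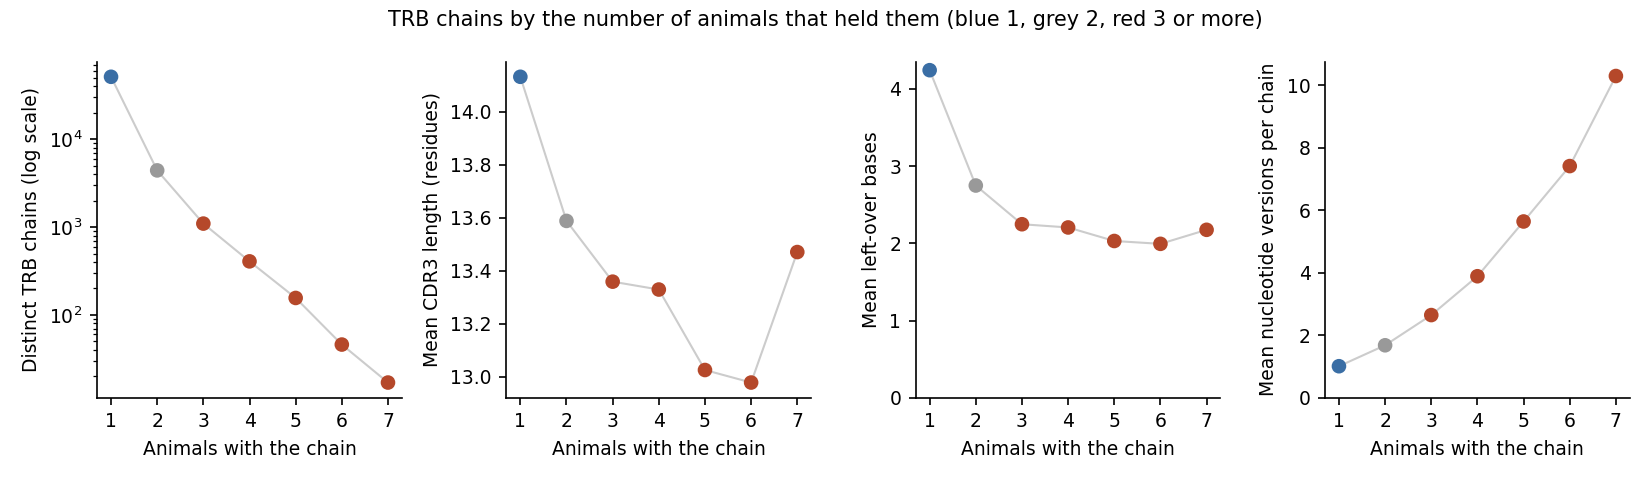
Distinct TRB chains (log scale), mean CDR3 length in residues, mean left-over bases and mean nucleotide versions per chain against the number of animals that held the chain. Each point is one class of chains, from 51292 chains in 1 animal to 17 in all 7. Left-over bases lay near 2 for every class of 3 or more animals.

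Within every animal, the CDR3 of public chains was shorter than that of one-animal chains. Over the 7 animals, mean length of public chains ranged from 13.25 to 13.35 residues (median 13.28) and that of one-animal chains from 14.11 to 14.20 (median 14.13). The groups did not overlap, and the difference ranged from −0.94 to −0.78 residues. No public chain was shorter than 9 or longer than 16 residues, while one-animal chains ran from 6 to 26. Chains of 14 residues made up 34.9% to 39.6% of the public chains of an animal and 26.7% to 29.3% of its one-animal chains. The largest gap on the other side was at 15 residues, with 10.7% to 13.6% of public and 24.3% to 25.4% of one-animal chains.

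Public chains also held fewer left-over bases in every animal. Mean left-over bases per chain ranged from 2.03 to 2.24 (median 2.14) in public chains and from 4.18 to 4.37 (median 4.28) in one-animal chains, a difference of −2.25 to −2.05. Versions with no left-over base at all, which germline segments could fully encode, made up 18.4% to 22.4% of public versions and 2.96% to 3.88% of one-animal versions. The non-template bases marked in the deposited germline alignments gave the same order, 2.57 to 2.75 bases in public and 4.56 to 4.80 in one-animal chains. The germline V match was nearly as long in public as in one-animal chains, 13.4 to 13.5 and 13.6 bases, and the J match slightly longer, 18.3 to 18.4 and 18.0 to 18.2 bases. The D match was shorter, 5.66 to 5.94 bases against 6.39 to 6.49, and a version without any D match was more frequent, 11.3% to 14.8% against 5.74% to 6.65%.

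**Figure D2:**
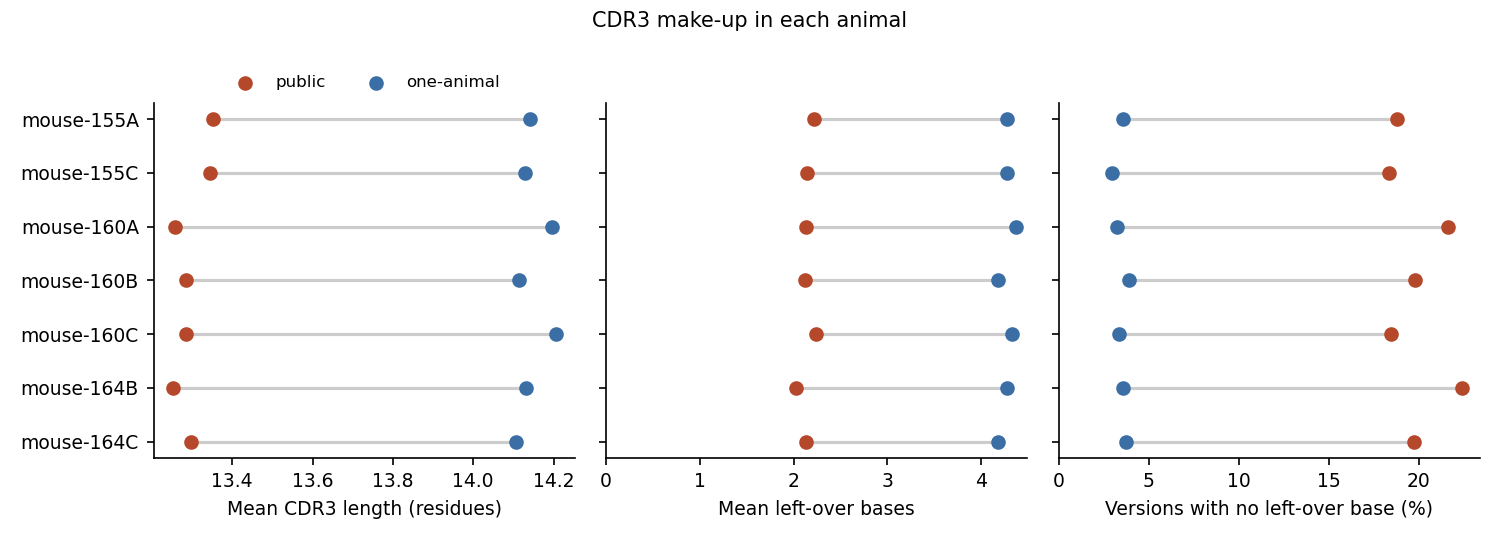
Mean CDR3 length in residues, mean left-over bases and the percentage of versions with no left-over base in each of the 7 animals, for public chains (red) and one-animal chains (blue). Grey lines join the pair of values of one animal, and the length axis does not start at 0. In all 7 animals public chains lay below one-animal chains in the first 2 panels and above them in the third.

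The difference in left-over bases was present at equal CDR3 length and within single TRBV genes. There were 6 CDR3 lengths, from 11 to 16 residues, with at least 10 versions of each class in every animal. At each of the 6, public chains had fewer left-over bases in 7 of 7 animals, with a median difference between −2.37 and −1.22. At 14 residues, public chains had 2.27 to 2.47 left-over bases and one-animal chains 3.92 to 4.24. There were 12 TRBV genes with that many versions, and in all 12 public chains had fewer left-over bases in 7 of 7 animals, with a median difference between −2.66 and −1.81. In chains with TRBV12-1, for example, the means were 1.84 to 2.24 against 4.54 to 4.82.

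The residues that followed the conserved start differed between the classes. A start of CASS was found in a median of 88.1% of the public and 66.0% of the one-animal chains of an animal. CASSL opened 36.4% of public and 17.3% of one-animal chains, and CASSP 20.1% and 8.09%, both higher in public chains in 7 of 7 animals. CASG (6.14% against 12.6%), CTCS (1.69% against 6.08%) and CAWS (0.343% against 2.86%) were lower in 7 of 7 animals. Germline TRBV1 encodes the start CTCS. In the middle of the CDR3, without the first 4 and last 5 residues, leucine, glycine, asparagine, serine and proline made up a larger share of public chains in 7 of 7 animals. This middle still holds germline residues, such as a leucine of TRBV12-1 and TRBV12-2 and an asparagine of TRBJ1-2. Its shares are therefore not independent of V and J usage. Leucine had the largest difference, a median of 10.2% of residues against 6.61%. Arginine (4.88% against 7.33%), glutamate (1.43% against 3.38%) and alanine (6.26% against 7.36%) were lower in 7 of 7, as were the rarer valine, phenylalanine, histidine, isoleucine, lysine, methionine and cysteine.

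Public chains resembled each other. Of the 1721 public chains, 1469 (85.4%, 95% interval 83.6 to 87.0) had another public chain of the same length that differed by 1 residue, with a median of 3 such neighbours and at most 24. Of the one-animal chains, 9372 of 51292 (18.3%, 17.9 to 18.6) had such a public neighbour. At a length of 14 residues the shares were 88.3% (85.5 to 90.7) and 24.2% (23.5 to 24.9). Intervals throughout are exact Clopper–Pearson intervals, and they cover counting error only.

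TRBV usage differed between public and one-animal chains in the same direction in all animals for most genes. Of 23 TRBV genes, 7 (30.4%) had a higher share of distinct chains among public chains in all 7 animals and 10 (43.5%) had a lower share. TRBV12-1 (chr6:41090484-41091001, GRCm39) had the highest difference and was used by a median of 16.0% of public and 6.61% of one-animal chains, a difference of 7.64 to 12.3 percentage points. TRBV12-2 (chr6:41095785-41096298) was used by 10.5% and 4.72%, a difference of 4.98 to 6.82 points. TRBV13-1, which lies between these genes, had 6.78% and 8.02% and was lower in public chains in 7 of 7 animals. TRBV3 (chr6:41025224-41025762) had the next highest difference, with 8.62% and 6.54%, a difference of 0.47 to 3.403 points. TRBV13-2 (chr6:41098330-41098766), which lies between TRBV12-2 and TRBV13-3, had the largest difference the other way, with 6.01% of public and 12.6% of one-animal chains. TRBV1 (chr6:40868163-40868819) had 1.69% and 6.33%. TRBV31 (chr6:41534627-41535386), the one TRBV gene downstream of the TRBJ clusters, had 0.392% and 3.94%.

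TRBJ usage differed for fewer genes. Of 12 TRBJ genes, 2 (16.7%) were higher in public chains in all 7 animals and 5 (41.7%) were lower. TRBJ2-7 (chr6:41520744-41520790), which encodes the ending YEQYF, was used by a median of 25.0% of public and 17.1% of one-animal chains. TRBJ1-2 (chr6:41510935-41510982), with the ending NSDYTF, was used by 10.8% and 6.58%. TRBJ1-4 (chr6:41511745-41511795) had 4.72% and 7.23%, TRBJ2-2 (chr6:41519891-41519941) had 3.59% and 6.13%, and TRBJ1-6 (chr6:41512488-41512540) had 0.914% and 3.203%. The share of the TRBJ1 cluster as a whole was lower in public chains in 5 animals and higher in mouse-164B and mouse-164C. Counted over cells rather than distinct chains, V and J genes of one sign in all animals numbered 10 in place of 24.

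**Figure D3:**
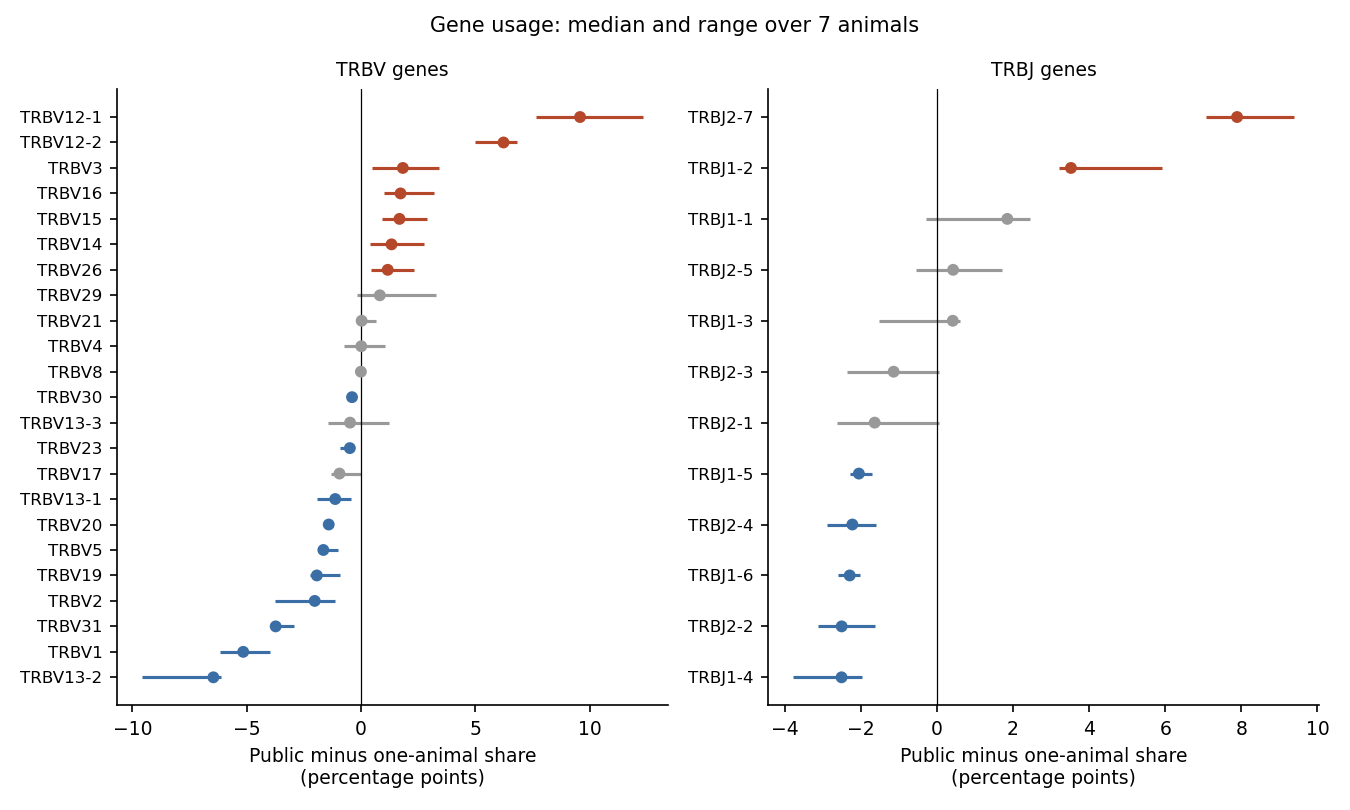
Difference in the share of distinct chains that used each TRBV or TRBJ gene, public minus one-animal, in percentage points. Points are medians and lines the lowest to highest value of 7 animals, red for genes higher in all 7, blue for genes lower in all 7 and grey for the rest. TRBV12-1, TRBV12-2 and TRBJ2-7 stood highest, and TRBV13-2 lowest.

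Nearly all public chains were recorded in several nucleotide versions. Annotated cells from at least 3 animals were present for 1239 public chains. Of these, 1204 (97.2%, 96.1 to 98.0) had 2 or more versions and 982 (79.3%, 76.9 to 81.5) had at least as many versions as annotated animals. In 717 chains (57.9%) no version occurred in 2 animals, so the annotated cells of each animal had their own nucleotides for the shared CDR3. Cells without annotation may hold further versions. A single version reached 3 or more animals in 115 chains (9.28%, 7.72 to 11.04). The TRBV gene varied too, and 1511 of all 1721 public chains (87.8%) were recorded with more than 1 TRBV gene, against 13 with more than 1 TRBJ gene. Some TRBV genes end in the same bases within the CDR3, so a version may be held with different TRBV genes.

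More animals give more chances to see a second version, so versions were also counted within single animals at equal numbers of annotated cells. This does not undo the rule. Public chains were still chosen by presence in several animals and one-animal chains by absence from all others. The difference is therefore not independent of that choice. A chain was counted once in each animal where it had the stated number of annotated cells. Public chains could thus count in several animals, which the intervals do not take into account. At 2 annotated cells, 686 of 784 public chains (87.5%, 85.0 to 89.7) had 2 versions, against 398 of 906 one-animal chains (43.9%, 40.7 to 47.2). By animal the share ranged from 81.2% to 90.8% for public chains and from 14.6% to 64.8% for one-animal chains, and the groups did not overlap. At 3 cells the shares with 2 or more versions were 94.6% (90.9 to 97.1) and 18.1% (12.7 to 24.6), and at 4 cells 85.5% (75.6 to 92.5) and 2.02% (0.246 to 7.11). Counted at 2 cells within one thymus table and pooled over these tables, the shares were 89.0% for public and 50.3% for one-animal chains. The same shares were 89.5% and 34.2% in spleen, and 80.3% and 18.9% in tumor.

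**Figure D4:**
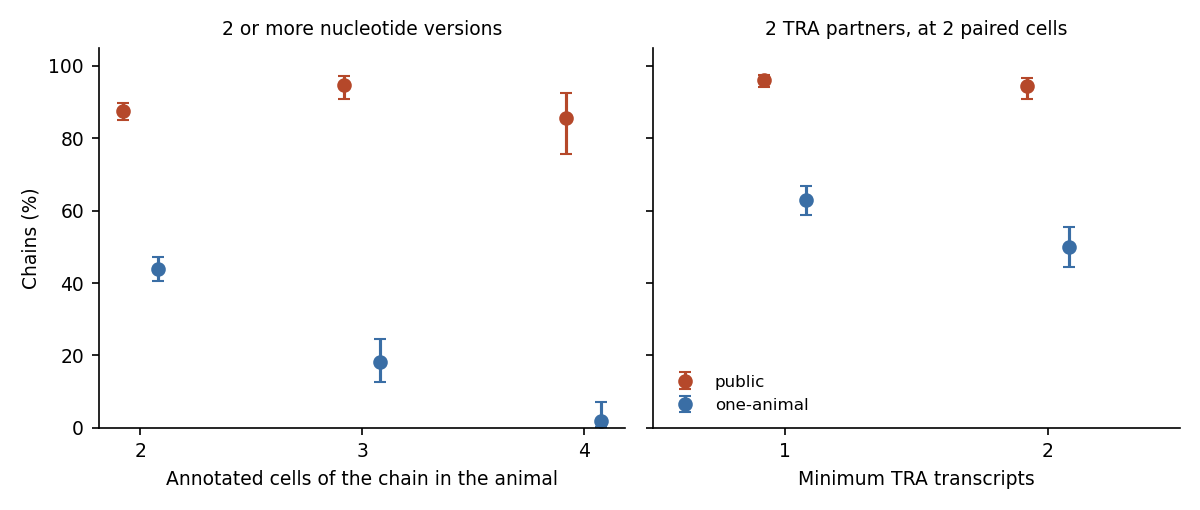
Left, the percentage of chains with 2 or more nucleotide versions among chains with 2, 3 or 4 annotated cells in one animal. Right, the percentage of chains with 2 different TRA partners among chains with 2 paired cells in one animal, with all TRA chains and with TRA chains of 2 or more transcripts. Points are pooled over animals for public (red) and one-animal (blue) chains. A public chain can count in several animals. Bars are exact 95% intervals. Public chains lay above one-animal chains at every position, from 85.5% to 96.2%.

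Versions that occurred in several animals held fewer left-over bases than versions of 1 animal. Among versions of public chains with fewer than 20 cells in each animal, the mean was 2.23 left-over bases for 5135 versions of 1 animal, 1.46 for 557 versions of 2 animals and 1.31 for 97 versions of 3 or more animals. No left-over base was present in 16.9% (15.9 to 17.9), 31.8% (27.9 to 35.8) and 42.3% (32.3 to 52.7) of them.

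The 12 chains found in most animals, ranked by animals and then by tables, were all recorded in 7 animals, and 11 of them had 7 to 19 versions. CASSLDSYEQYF was found in the most tables, 12 of 14, and had 20 cells in all, at 4 in mouse-164B thymus, 3 in mouse-164C tumor, 2 in each of mouse-160B thymus, mouse-160B tumor and mouse-160C thymus and 1 in each of the other 7 tables that held it. It had 11 versions and 8 TRBV genes, and its 12 paired cells had 12 TRA partners. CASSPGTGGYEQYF had the most versions of all public chains, 19 among 34 annotated cells. Its 40 cells lay in 10 tables, with 8 in mouse-160A tumor, 6 in mouse-164B thymus, 5 in each table of mouse-164C and 1 to 4 in each of the other 6, and they used 14 TRBV genes. It had at least 2 left-over bases in every version. These chains were thinly spread, with no table holding more than 8 of the cells of either.

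Chains ending in TRBJ2-7 or TRBJ1-2 were frequent among the most varied. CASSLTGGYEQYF had 18 versions among 20 annotated cells of 6 animals, with a mean of 0.889 left-over bases. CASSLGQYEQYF had 15 versions among 19 annotated cells, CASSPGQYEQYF 14 among 17 and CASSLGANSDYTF 14 among 22. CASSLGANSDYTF was found in all 7 animals with 25 cells, 5 in mouse-164C thymus, 4 in mouse-155A spleen and mouse-164B thymus and at most 2 in any other table. Its 15 paired cells had 15 different TRA partners. The other chains in 7 animals included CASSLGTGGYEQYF, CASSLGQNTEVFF, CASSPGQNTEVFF, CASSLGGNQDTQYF and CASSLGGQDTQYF, which had 11 to 14 versions each. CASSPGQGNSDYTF was less even, as 12 of its 25 cells were in mouse-164B tumor. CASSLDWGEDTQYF had 7 versions in 8 annotated cells.

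A small set of public chains did not follow this pattern. A single version was found in 35 of the 1239 chains annotated in 3 or more animals. Of these, 15 had 20 or more cells in one animal, and the minimum of 20 was chosen after the values were seen. All 15 were led by a tumor table, with 5 chains each from mouse-160A and mouse-160C, 3 from mouse-164C and 2 from mouse-164B. They had 4247 cells in the leading animals and 85 in the others. The cells elsewhere had a median of 2 TRB transcripts, the minimum of the rule, in 14 of the 15 chains, while the leading cells had medians of 4 to 10. Of the 85, 36 matched a cell of the same chain in another animal in all later barcode parts and the sublibrary. The part of such cells in the sharing was not tested. The fewest left-over bases per chain ranged from 2 to 8 with a median of 4. The other 20 single-version chains had fewer than 20 cells in each animal, with 0 to 6 left-over bases (median 2), and 6 of them had none.

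The single-version chain printed above, with TRBV13-1 and TRBJ2-4, showed this pattern at its widest. It was recorded in 7 animals with 419 cells, of which 399 were in mouse-160A tumor, where it made up 15.7% (14.3 to 17.2) of TRB cells. The other 20 cells were 7 in mouse-160C thymus, 5 in mouse-155A thymus, 2 in mouse-164B tumor and mouse-164C tumor and 1 in each of mouse-155C spleen, mouse-160B thymus, mouse-160B tumor and mouse-164C thymus. Median TRB transcripts were 8 in mouse-160A and 2 elsewhere, and 9 of the 20 cells had such a barcode match. No cell outside mouse-160A had a TRA chain. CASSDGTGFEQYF had 899 cells in mouse-164B tumor (13.2% of TRB cells, 12.4 to 14.03), 6 in mouse-155C thymus and 3 in mouse-160C thymus. A chain of 15 residues with TRBV12-1 and TRBJ1-2 had 805 cells in mouse-164C tumor (5.70%, 5.33 to 6.10) and 2 in each of 3 other tables. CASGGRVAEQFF had 284 cells in mouse-160A tumor, 7 in mouse-160C thymus and 1 in each of 5 other tables.

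Of the chains annotated in 3 or more animals, 14 had 20 or more cells in one animal and several versions. A further 6 public chains with that many cells were annotated in fewer than 3 animals and are not counted here. A TRBV1 and TRBJ2-2 chain, with 555 of its 562 cells in mouse-160C tumor, had 3 versions, of which one was in 4 animals. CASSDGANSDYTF, with 30 of its 33 cells in mouse-160B tumor, had 3 versions in 3 animals. All 14 were led by a tumor table, with 1814 cells in the leading animals and 58 elsewhere. Barcode matches and low transcript counts occurred here too. Of the 58, 12 matched a cell of the same chain in another animal in all later barcode parts and the sublibrary. Median TRB transcripts per chain were 2 to 4 in the cells elsewhere and 3 to 11 in the leading cells. The part of such cells in the sharing was not tested.

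In every animal, public chains made up a larger share of the distinct chains in the spleen or tumor than in the thymus. A chain of a table counts as public when 2 or more of the other animals hold it, so the depth of the other animals sets this share. The share was 8.19% to 12.7% in the 7 thymus tables (median 11.4%), and 9.68% to 15.9% in the 5 tumor tables (median 11.2%). It was 12.9% (11.9 to 14.05) in mouse-155A spleen and 14.6% (12.9 to 16.5) in mouse-155C spleen. The groups overlapped, but within each mouse the second tissue was higher by 1.03 to 4.34 percentage points. The smallest difference was in mouse-155A and the largest in mouse-160A, where the tumor table held 327 distinct chains, 52 of them public.

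The share of cells differed far more between tumor tables. Public chains were carried by 9.36% to 13.1% of the cells of a thymus table, 14.4% and 14.5% in spleen, and 11.99% in mouse-160B tumor, 22.9% in mouse-164C tumor, 24.9% in mouse-164B tumor, 44.6% in mouse-160C tumor and 53.3% in mouse-160A tumor. Without all chains, public or not, that had 20 or more cells in one animal, the tumor shares were 12.1% to 13.97% and the thymus shares 9.55% to 12.7%. In mouse-160C the tumor share was then 12.1%, below its thymus share of 12.7%, while in every other mouse the second tissue was higher. Public chains with 20 or more cells in one animal held 93.4% of the public cells of mouse-160A tumor, 94.3% of those of mouse-160C tumor, 69.9% in mouse-164B tumor, 55.7% in mouse-164C tumor and 4.21% in mouse-160B tumor. The tumor tables with high shares of public cells were thus those in which such large chains held most of the public cells.

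**Figure D5:**
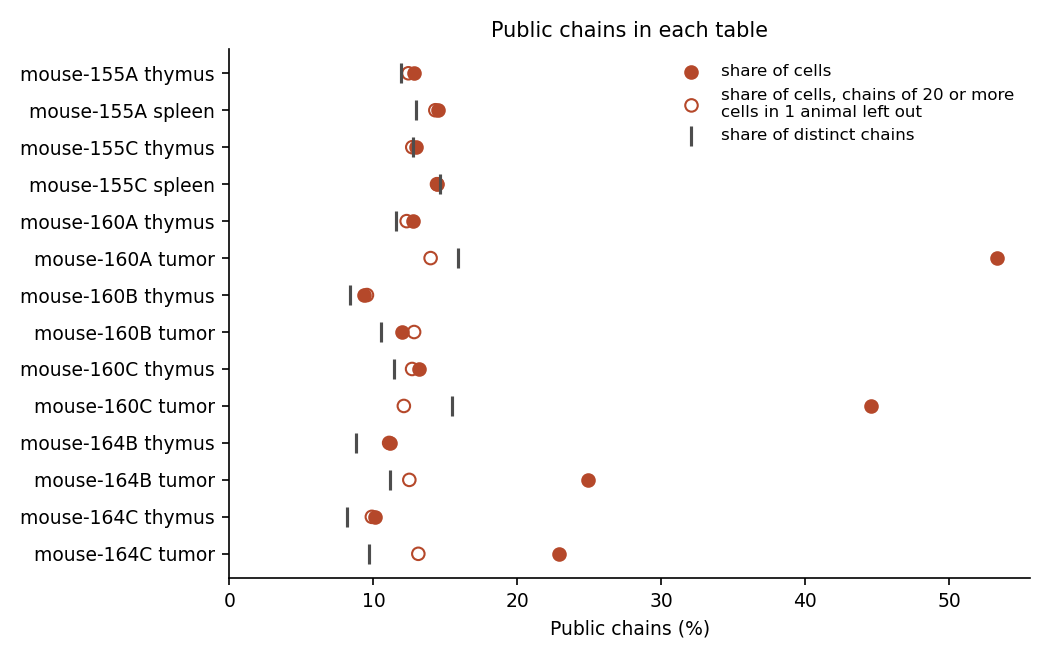
Share of public chains in each of the 14 tables, as a percentage of distinct chains (grey bars), of cells (filled points) and of cells after chains with 20 or more cells in one animal were left out (open points). Filled points of 4 tumor tables lie between 22.9% and 53.3%, and open points of all tables between 9.55% and 14.4%.

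The public chain with most cells in each thymus or spleen table was small. These leading chains had 5 to 15 cells in a table, and 3 tables had a tie, which was settled by the order of the sequences. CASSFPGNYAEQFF had the most, 15 cells in mouse-160A thymus, and also 8 in mouse-160A tumor, with 1 in mouse-164B thymus and 1 in mouse-164C tumor. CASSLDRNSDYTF had 10 cells in mouse-164B thymus and 8 in mouse-164B tumor, and it had 6 versions. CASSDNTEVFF led mouse-160B thymus with 6 cells, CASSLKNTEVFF led mouse-155A spleen with 5 of its 24 cells, and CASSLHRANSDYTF led mouse-155C spleen with 5. Chains whose cells lay mainly in a tumor of another mouse led 3 thymus tables, the printed single-version chain in mouse-155A, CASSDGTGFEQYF in mouse-155C and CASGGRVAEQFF in mouse-160C.

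Public chains had several cells in a table more often than one-animal chains. Cell number may not be independent of the rule, and their link was not tested. In thymus tables, 3.89% to 24.5% of public chains (median 14.3%) and 0.663% to 2.29% of one-animal chains (median 1.23%) had 2 or more cells, and public chains were higher in 7 of 7. In spleen the shares were 4.80% and 12.7% against 2.39% and 0.932%. In tumors they were 19.0% to 42.3% against 4.02% to 34.5%, higher in 5 of 5, though the ranges overlapped. The largest one-animal chains of tumors were also large, with 633 cells in mouse-164C tumor and 287 in mouse-160C tumor.

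Public chains were found in both tissues of an animal more often than one-animal chains. Between 2.91% and 22.8% of the public chains of an animal (median 8.54%) and 0.285% to 1.498% of its one-animal chains (median 0.892%) were in both of its tables. Where both tables were annotated, the tissues had a version in common in 89 of 595 public chains and in 165 of 369 one-animal chains. These counts were summed over animals, so a public chain could count in several. The share was lower in public chains in 6 of 7 animals, though close in mouse-164C (17 of 148 against 11 of 74), and higher in mouse-155A (11 of 69 against 3 of 22).

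TRA partners of public chains were diverse. The TRA chain is rearranged separately in each T cell after TRB, and cells of one clone carry the same pair. Both chains were recorded in 9723 of the 15686 public cells. At 2 paired cells in one animal, 525 of 546 public chains (96.2%, 94.2 to 97.6) and 375 of 596 one-animal chains (62.9%, 58.9 to 66.8) had 2 TRA partners. A chain counted once in each such animal, so a public chain could count several times. With TRA chains of 2 or more transcripts the shares were 94.3% (90.9 to 96.7) and 49.8% (44.3 to 55.4). By animal, public chains ranged from 90.9% to 97.4% and one-animal chains from 28.6% to 78.6%. Across animals, 639 public chains had paired cells in 3 or more. In 630 of them no TRA occurred in 2 animals. In the other 9 a TRA was found in 2 animals, never in 3, and no chain had the same single TRA partner in 3 animals. The 639 chains had a median of 4 paired cells, and no such count is given for other chains. The 630 are thus not a result about public chains in particular.

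The public chains with most TRA partners were tumor-led chains with many cells, each with 1 or few versions. A TRBV29 and TRBJ2-1 chain of 14 residues, with 329 of its 335 cells in mouse-164C tumor, had 70 TRA partners in 148 paired cells, and the leading TRA was in 62 of them. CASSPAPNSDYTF, with 228 of 231 cells in mouse-164C tumor, had 48 partners in 65 paired cells, and the TRBV1 and TRBJ2-2 chain of mouse-160C tumor described above had 43 in 131. TRA chains other than the leading one rested on 1 transcript in 55.8%, 56.2% and 49.5% of cells, and the leading TRA did so in 74.2%, 11.8% and 86.8%. Counted with 2 or more TRA transcripts only, the 3 chains had 32, 22 and 28 partners.

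Invariant TRA chains were rare beside public TRB chains. TRAV11 with TRAJ18, the TRA of invariant natural killer T cells, was present in 80 of 9723 paired public cells, spread over 76 public chains. In thymus tables it made up 1.59% to 6.03% of paired public cells (median 3.23%) and 5.41% to 9.85% of paired one-animal cells (median 7.62%), and it was lower in public cells in 7 of 7 tables. In tumor tables it was at most 0.138% of public and 0.393% of one-animal cells. TRAV1 with TRAJ33, the TRA of mucosal-associated invariant T cells, was found in 0 public cells. No such count is given for one-animal cells, so this 0 is not a result about public chains in particular. Without cells that carry TRAV11 and TRAJ18, 1695 chains were public.

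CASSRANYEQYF, a TRB chain that the study names as specific for an ovalbumin peptide, was not public. It was recorded in 10 cells, all in mouse-160A tumor, with TRBV12-1 and TRBJ2-7, 1 version, 10 left-over bases and 2 TRA partners. At 1 transcript it was present in barcodes of 6 animals, but with no more than 1 transcript outside mouse-160A tumor, where 29 barcodes held it and the highest had 28 transcripts.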

How the data were processed

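CD8+ T cells of thymus, spleen and tumor were profiled with Parse Evercode TCR. The authors assembled and called chains with the Parse Biosciences TCR pipeline, whose version is not given in the sources used here, and the submitters' processing notes name GRCm39. The deposited barcode tables give read and transcript counts of each chain per barcode, with a multiplet mark, and the deposited annotation tables give CDR3 nucleotides and a germline alignment. The labels describe 8 pooled sublibraries, so animal and tissue came from the table names.

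Barcodes without a multiplet mark and with 2 or more TRB transcripts were kept, so doublets were removed as marked by the pipeline. Germline V, D and J bases were read from GRCm39 with GENCODE M39, and 99.8% of annotated TRB chains had a germline V and J there. The V match was the longest shared start, the J match the longest shared end, and the D match the longest stretch of at least 3 bases between them, with only TRBD1 allowed for TRBJ1 genes. Matching was tested on simulated rearrangements. Chance matches shorten the left-over count. Python 3.11.15, pandas 2.3.3, numpy 2.4.6 and scipy 1.17.1 were used.

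Public chains, comparisons and named chains were chosen with earlier results of these data known. Named chains were the 12 in most animals, the leading public chain of each table, the 5 with most versions, the 3 with most TRA partners, the 3 TRBV and TRBJ genes with the largest differences in each direction, and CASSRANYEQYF. Residues, chain starts, neighbours and the minimum of 20 cells were added after values were seen.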

Additional observations from a re-analysis of the deposited data

Results flagged for a closer look

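Barcodes with a second TRB chain were used only for their first chain in the report. Of 6811 second TRB chains with 2 or more transcripts, 802 (11.8%, exact 95% interval 11.02 to 12.6) equalled a public chain. This share is listed because it passed the 0.0440% that a count of 0 would allow. It lay below the share of first TRB chains that were public, which was 17.8% of all 88238 cells, 19.2% of the same 6811 cells and a median of 13.04% over the 14 tables. Public chains were defined from first chains only. A first chain therefore counts its own animal toward the rule and a second chain does not, so these shares are not on equal terms and no conclusion is drawn from the gap. Among 12 sets of table or animal values searched for a value that stood apart from the rest, 0 had one by Dixon's 95% limit.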

How the results depend on the processing

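No paired analysis was possible because the labels give no groups that replicate numbers could pair, and within-animal differences are in the report. Of 240 recomputed values, 200 moved by less than the spread between animals or tables (counts by less than 1.5 times) and none changed sign. This tally is no measure of robustness. For the share of cells the spread was 13.46 points and the main value 13.04%, so no fall could count as a move. A share of 6.87% with public from 4 animals was thus counted among the 200. Counts and shares could not change sign, and many of the values left out only 1 animal or sublibrary. With 1 or more TRB transcripts there were 7859 public chains, the median share of chains per table was 26.9% and of cells 38.98%, and the public minus one-animal differences were −0.532 residues, 1.41 versions, −1.55 left-over bases and 20 points for chains with 2 TRA partners. At 3 or more transcripts, 976 chains were public, with 8.90% of chains and −0.914 residues. Public from 2 animals gave 6135 chains, 25.6% of chains, 28.8% of cells, −0.649 residues, 1.16 versions and −1.76 bases. Public from 4 animals gave 626 chains, 5.89% of chains, −0.926 residues, 3.75 versions and −2.23 bases. Chains defined by V gene, CDR3 and J gene gave 510 public chains, 2.78% of chains, 3.28% of cells and 1.40 versions. Thymus tables alone gave 709 public chains, 6.55% of chains, −0.927 residues and 2.17 versions. At 2 cells in one animal the difference was 0.436 versions. Without a D match it was −2.74 bases. V and J genes of one sign numbered 10 over cells.

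With each animal or sublibrary left out in turn, values ranged from 914 to 1531 public chains, 8.27% to 10.8% of chains, 9.50% to 12.4% of cells, −0.880 to −0.798 residues, 2.20 to 2.61 versions, −2.15 to −2.03 bases, 14.8 to 22.9 points for chains of 2 or more cells, 35.4 to 46.3 points for TRA partners and 23 to 27 genes. Depth limits all sharing counts, since a chain below 2 transcripts in an animal is not counted there. Comparing genotypes or tumor models was not possible. Leaving out chains of 20 or more cells, and taking non-template bases from the deposited alignment, were added after seeing the data.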

Other observations

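The 76 public chains with a cell that carried TRAV11 and TRAJ18 used TRBV13-2 (20 chains), TRBV13-1 (16), TRBV29 (14) and TRBV13-3 (8) most often as their leading TRBV gene. Among all public chains of an animal, the median shares of these genes were 6.01%, 6.78%, 7.18% and 6.27%. The chains held other cells too, with for example 1 such cell among 12 paired cells of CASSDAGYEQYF. TRBV13 and TRBV29 genes are known as the common TRBV genes of mouse invariant natural killer T cells. TRBV13-2 was the gene with the largest lower share among public chains as a whole.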
